A study of Mus musculus with 10 samples.

Results

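The genes that encode the enzymes removing superoxide and hydrogen peroxide were examined in kidneys of mice with an activating change in RagC. They were chosen by name, as the glutathione peroxidase family, the superoxide dismutases Sod1 to Sod3 and catalase, with the genotype comparison of these genes already known. Of 12 names searched, 9 were among the 13837 genes of the table, namely Gpx1, Gpx3, Gpx4, Gpx6, Gpx8, Sod1, Sod2, Sod3 and Cat. Gpx2, Gpx5 and Gpx7 were not analysed here. All 9 genes passed the filter on low values, a normalized count of 10 in 5 mice. Because the genes were picked with their differences known, those differences are given as a description, without p values.

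RNA was measured in whole kidneys of 3-month-old C57BL/6 mice, 5 of genotype Rragc +/+ and 5 heterozygous for a knock-in allele, Rragc S74N/+. Rragc encodes RagC, a GTPase that brings the kinase complex mTORC1 to the lysosome when amino acids are present, and the S74N substitution mimics its active, GDP-bound form. The allele was made by Cas9 editing at the endogenous locus and is present in all cells of the body, so no promoter or cell type restricts it. One library was made per mouse with the QuantSeq 3′ method, in which each polyadenylated transcript yields reads only near its end. A count therefore does not grow with transcript length, and levels of different genes are compared here as normalized counts, the reads of a gene divided by the size factor of its library.

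Superoxide dismutases turn superoxide into hydrogen peroxide. Catalase, in peroxisomes, splits hydrogen peroxide into water and oxygen, and glutathione peroxidases reduce it, or lipid hydroperoxides, at the expense of glutathione. Several glutathione peroxidases carry selenocysteine, an amino acid encoded by a TGA codon that elsewhere ends translation, and the kidney is the main source of the plasma enzyme Gpx3.

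The 5 glutathione peroxidases differ at this codon, which is shown because it divides the family into selenoenzymes and cysteine enzymes. Each line gives the coding strand from 8 codons before to 8 codons after the active-site codon, 5′ to 3′, with that codon in capitals, from the GENCODE vM21 transcripts on GRCm38, a different build from the one used for the counts.
Gpx1: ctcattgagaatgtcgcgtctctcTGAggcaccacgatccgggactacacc
Gpx3: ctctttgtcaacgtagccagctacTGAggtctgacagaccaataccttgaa
Gpx4: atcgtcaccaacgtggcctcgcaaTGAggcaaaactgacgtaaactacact
Gpx6: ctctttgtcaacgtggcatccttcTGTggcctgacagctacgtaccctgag
Gpx8: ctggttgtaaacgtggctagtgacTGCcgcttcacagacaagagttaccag

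In Gpx1 the TGA is codon 47, in exon 1 on the plus strand (chr9:108339451-108339453). In Gpx3 it is codon 73, in exon 2 on the plus strand (chr11:54907256-54907258). In Gpx4 it is codon 129 of the 253 codons of transcript Gpx4-201, in exon 3 on the plus strand (chr10:80054737-80054739). The number holds for that transcript. The annotation marks these 3 codons as selenocysteine. Gpx6 has the cysteine codon TGT at the aligned codon 73, in exon 2 on the plus strand (chr13:21313777-21313779), and Gpx8 the cysteine codon TGC at codon 79, in exon 2 on the minus strand (chr13:113045661-113045663). Across the whole coding sequence, the nearest relative of Gpx6 in this group was Gpx3, with 147 of 221 aligned residues identical (66.5%). Gpx1 shared 52.4% of aligned residues with Gpx3 and 48.2% with Gpx6, whereas Gpx4 and Gpx8 shared between 30.2% and 40% with each of the other members.

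Gpx6, a selenium-independent peroxidase in mice, was about 5-fold lower in Rragc S74N/+ kidneys, and Cat was 34.6% higher. These were the 2 of 9 genes that passed the adjusted threshold of 0.05 in the limma fit across all genes, 1 in each direction. Among all genes tested, 3.69% passed the threshold, 1.67% with higher and 2.02% with lower levels in Rragc S74N/+ mice. Nothing is read from this comparison of shares, since the genes were chosen with the contrast in view. The groups did not overlap for 3 genes (Gpx6, Cat and Sod1), against 660 of the 13197 genes tested (5.0%). The log2 difference was above 0 for 6 genes and below 0 for 3, with a median of 0.186, compared with 0.00046 over all genes.

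**Figure D1:**
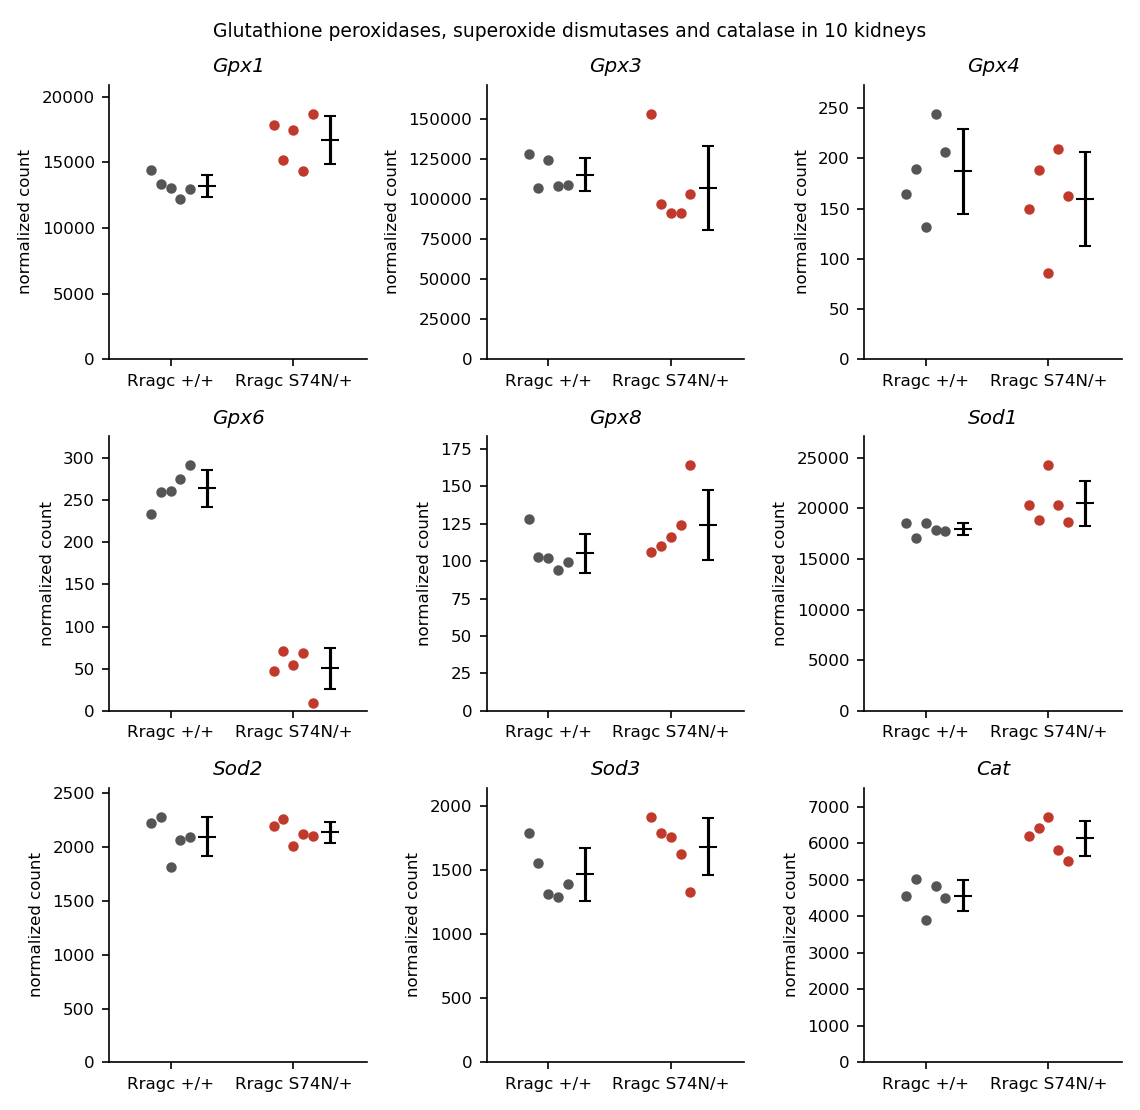
Normalized counts of the 9 genes in each mouse (y axis from 0, 1 panel per gene), with Rragc +/+ in grey and Rragc S74N/+ in red, 5 mice each. The black marks beside the points are mean and SD. Gpx6 is low in all Rragc S74N/+ mice and lowest in 1 of them, Cat is higher in all of them, and 1 Rragc S74N/+ mouse lies far above the others for Gpx3.

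Gpx6 was the only member of the group with a change of several fold. In Rragc +/+ mice it measured 233, 259, 261, 275 and 291 normalized counts (replicates 1 to 5), and in Rragc S74N/+ mice 47.4, 70.6, 54.6, 69.2 and 9.73. The lowest wild-type mouse was thus above the highest heterozygote. Means were 263.9 ± 21.8 and 50.3 ± 24.7 (SD, n = 5 each), a ratio of 5.24. The log2 difference was -2.62 (SE 0.363, 95% interval -3.39 to -1.86), on the log2(normalized count + 1) scale. Rragc S74N/+ replicate 5 rested on 10 reads of Gpx6, whereas the other heterozygotes had 50 to 76 reads and the wild types 230 to 291. Without it the heterozygous mean was 60.5 ± 11.3 (SD, n = 4) and the log2 difference -2.12 (SE 0.136). Gpx6 passed the threshold in all 20 alternative analyses.

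Markers of several nephron segments also differed between the genotypes, in both directions, and their part in the difference of Gpx6 was not tested. All 4 markers of the distal convoluted tubule (Slc12a3, Pvalb, Trpm6 and Emx1) passed the threshold with lower levels, and their sum lay between 2793 and 3324 normalized counts in wild types and between 1045 and 1392 in heterozygotes. Of 4 markers of the thick ascending limb, 2 (Umod and Kcnj1) passed the threshold with lower levels and 1 (Cldn16) with higher levels. The other marker, Slc12a1, did not pass (means 6354 in wild types and 5540 in heterozygotes, log2 difference -0.22). The sum of the 4 ran from 26519 to 35342 in wild types and from 11832 to 19837 in heterozygotes. By mean count, most of it was Umod (22917 and 11569). Rragc S74N/+ replicate 5, lowest for Gpx6, was also lowest for both sums, at 1045 and 11832. The sum of 5 intercalated cell markers was lower without overlap (1315 to 1462 in wild types, 1033 to 1200 in heterozygotes). Of these markers, 2 passed the threshold with lower levels, Aqp6 and Slc4a1. Atp6v1g3, the largest part of the sum, did not pass (means 678.8 in wild types and 579.7 in heterozygotes), nor did Foxi1 (52.28 and 48.77). Slc26a4 was higher on average (202.7 and 241.7) without passing. The sum of 5 principal cell markers was higher without overlap (852 to 1107 and 1255 to 2102), with 1 marker, Avpr2, past the threshold, and its highest value, 2102, was again in replicate 5. In whole tissue, fewer cells of a type and less RNA per cell cannot be told apart.

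Markers of adipocytes and other cell types set 2 Rragc S74N/+ libraries apart, replicates 1 and 5. The sum of Cfd and Fabp4, the 2 of 4 adipocyte markers listed in the table, was 183 to 259 in Rragc +/+ mice and 95 to 203 in 3 Rragc S74N/+ mice, but 1411 in replicate 1 and 4375 in replicate 5. The defining genes Adipoq and Plin1 were not analysed here. Replicate 1 also had the highest sum of the 2 neutrophil markers listed, 290 against 22 to 92 in the other mice. Replicate 5 had the highest sum of smooth muscle and pericyte markers (909). This sum was higher in all heterozygotes (623 to 909) than in any wild type (490 to 557), but none of its 5 markers passed the threshold. Acta2, Tagln, Myh11 and Rgs5 were higher on average, and Pdgfrb was lower (means 87.55 in wild types and 77.16 in heterozygotes). Replicate 5 also had the highest sum of fibroblast markers (2373, against 876 to 1277 in the other mice) and of the 1 lymphocyte marker listed (174, against 80 to 120). When both of these libraries were left out, a choice made after seeing the data, the log2 difference of Gpx6 was -2.01 (SE 0.132) and that of Cat 0.473 (SE 0.0957), and both passed the threshold. The sum of 7 proximal tubule markers overlapped between genotypes, at 45694 to 50386 and 46646 to 57287, and by mean count Slc34a1 alone made up more of it than the other 6 together. Of these 7 markers, Slc5a2 (log2 difference -0.93, limma adjusted p = 4.64e-05) and Slc5a12 (-0.95, limma adjusted p = 0.00177) fell and Slc22a6 rose (0.52, limma adjusted p = 0.00105).

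**Figure D2:**
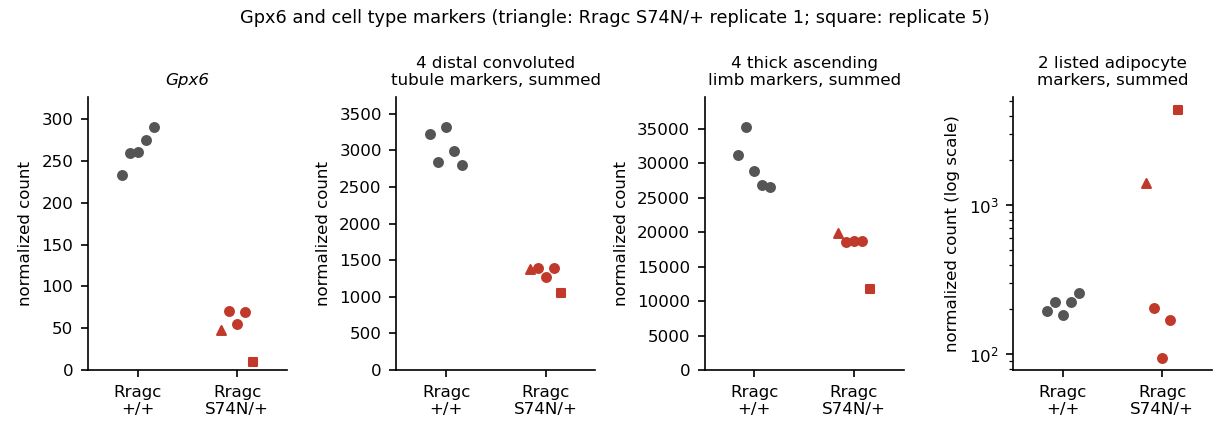
Normalized counts of Gpx6 and summed normalized counts of markers of the distal convoluted tubule, the thick ascending limb and adipocytes (y axis; the adipocyte panel has a log scale), 1 point per mouse, Rragc +/+ in grey and Rragc S74N/+ in red. The square, Rragc S74N/+ replicate 5, is the lowest mouse for Gpx6 (9.73) and both tubule sums and the highest for adipocyte markers (4375). By mean count, most of the thick ascending limb sum is Umod.

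An E-box was found in the promoter of 1 member, Gpx6. The letters CACGTG, the core of the element bound by TFEB and TFE3, transcription factors that mTORC1 keeps out of the nucleus, were searched on both strands from 250 bases before to 50 after each RefSeq start site (GRCm38.p6). They occurred in 2349 of 32851 promoters (7.15%). The 8 members with a promoter entry had 11 promoters in all. Among these members the letters occurred in Gpx6 alone, with 115 bases between the match and the start site. The stretch is on the plus strand at chr13:21312062-21312107, with the match in capitals.
Gpx6 promoter: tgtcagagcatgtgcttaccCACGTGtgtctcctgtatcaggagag
With 1 match among 11 promoters, the group was near the share over all promoters, so nothing is read from the count. A match describes the letters in this window and shows no binding.

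Over the 10 mice, the genes whose log2 values followed Gpx6 most closely were Wfdc15b (Pearson r = 0.989), Cacnb4, a subunit of voltage-gated calcium channels (0.985), Adcy1, an adenylyl cyclase (0.982), Slc5a3, a myo-inositol transporter (0.975), and Sgms2, a sphingomyelin synthase (0.973). The genotype difference itself enters these values, which share libraries and are given as a description. Wfdc15b lay at 2607 to 2902 normalized counts in wild types and at 362 to 1019 in heterozygotes, and, like Gpx6, was lowest in Rragc S74N/+ replicate 5. Without that mouse the 5 values of r were between 0.943 and 0.989.

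Gpx1, the widely expressed cytosolic selenoenzyme, was higher on average without passing the threshold. It measured 14436, 13385, 13039, 12185 and 12959 normalized counts in Rragc +/+ mice and 17868, 15166, 17474, 14351 and 18694 in Rragc S74N/+ mice. Rragc S74N/+ replicate 4 lay within the wild-type range, and the other 4 heterozygotes lay above it. The means were 13201 ± 818 and 16711 ± 1858 (SD, n = 5 each), with a log2 difference of 0.34 (SE 0.092, 95% interval 0.14 to 0.53). The interval belongs to this gene alone and is not adjusted for the number of genes. The call depended on the analysis, since Gpx1 passed in 7 of 20 alternatives, among them edgeR and DESeq2 on recovered reads.

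Gpx3, the secreted plasma enzyme, had the fifth highest mean of all genes in the table. In Rragc +/+ kidneys it reached 127823, 106507, 124480, 107919 and 108901 normalized counts, and in Rragc S74N/+ kidneys 152850, 96619, 90871, 91274 and 102950. Replicate 1 of the heterozygotes was above every wild type, and the other 4 heterozygotes were below every wild type. Means were 115130 ± 10170 and 106910 ± 26143 (SD, n = 5 each), and the log2 difference was -0.13 (SE 0.144, 95% interval -0.43 to 0.17). Without replicate 1 the heterozygous mean was 95428 ± 5657 (SD) and the log2 difference -0.27 (SE 0.113), which did not pass the threshold either. Replicate 1 was also 1 of the 2 libraries with raised adipocyte markers (1411), while replicate 5, with more of them (4375), was at 102950; the part of such RNA in the level of Gpx3 was not tested.

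Gpx3 made up most of the normalized counts of the 9 genes together. Its share was 72.8% to 76.1% in Rragc +/+ mice. In Rragc S74N/+ mice it was 75.8% in replicate 1 and 63.4% to 68.8% in the others. Of all reads outside the mitochondrial genome, Gpx3 took 1.67% to 2.76% per library.

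Gpx4, which reduces phospholipid hydroperoxides in membranes, was counted at a low level. Its values were 164, 189, 132, 244 and 206 normalized counts in Rragc +/+ and 150, 188, 86.2, 209 and 162 in Rragc S74N/+ mice. The groups overlapped widely, and the log2 difference was -0.26 (SE 0.202, 95% interval -0.69 to 0.16). It was -0.06 without Rragc S74N/+ replicate 3 and -0.16 without Rragc +/+ replicate 4, and it did not pass the threshold in any alternative, with a lowest value of -0.38 without Rragc +/+ replicate 3. These values are uncertain, because pseudogene copies of Gpx4 exist in the mouse genome and reads that match both could be lost or moved. Gpx8, a peroxidase of the endoplasmic reticulum membrane, measured 128, 103, 102, 94.3 and 99.3 in Rragc +/+ mice. In Rragc S74N/+ mice it measured 106, 110, 116, 124 and 164, so that 4 of 5 lay within the range of the wild types. The log2 difference was 0.22 (SE 0.137, 95% interval -0.07 to 0.51), and it was 0.12 without Rragc S74N/+ replicate 5.

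**Figure D3:**
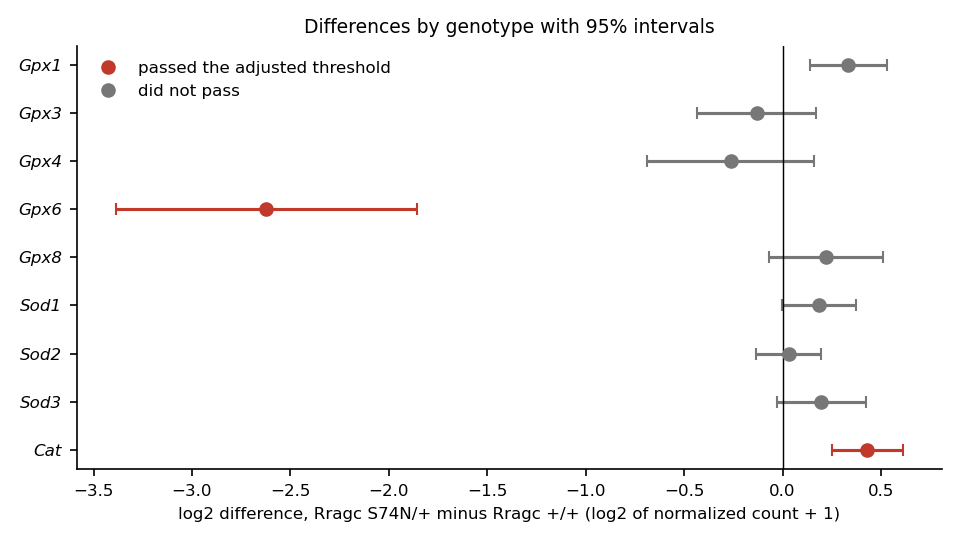
Log2 difference of each gene between Rragc S74N/+ and Rragc +/+ kidneys (x axis, log2 of normalized count + 1), with its unadjusted 95% interval from the limma fit of 5 against 5 mice. Red points, Gpx6 (-2.62) and Cat (0.43), passed the adjusted threshold, and the 7 grey points did not.

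None of the 3 superoxide dismutases passed the threshold. Sod1, the copper and zinc enzyme of the cytosol, ranked nineteenth of all genes by mean. It measured 18578, 17080, 18540, 17831 and 17724 normalized counts in Rragc +/+ kidneys and 20345, 18894, 24236, 20332 and 18676 in Rragc S74N/+ kidneys. All heterozygotes were above all wild types, though the lowest heterozygote and the highest wild type were close (18676 and 18578). The log2 difference was 0.19 (SE 0.089, 95% interval -0.002 to 0.37) and did not pass the threshold in the main analysis or in any of 20 alternatives.

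Sod2, the manganese enzyme of mitochondria, was nearly level between genotypes. It ran from 1819 to 2280 normalized counts in Rragc +/+ mice (median 2097) and from 2008 to 2264 in Rragc S74N/+ mice (median 2119). The log2 difference was 0.03 (SE 0.078, 95% interval -0.13 to 0.20), and it turned to -0.02 when Rragc +/+ replicate 3, the lowest mouse, was left out. Sod3, the extracellular enzyme bound to the matrix, measured 1790, 1559, 1315, 1292 and 1391 in Rragc +/+ and 1918, 1790, 1761, 1626 and 1333 in Rragc S74N/+ mice. These ranges overlapped, and the log2 difference of 0.20 (SE 0.108, 95% interval -0.03 to 0.42) did not pass the threshold.

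Sod1 was the member with an antioxidant response element core in its promoter, the letters TGACNNNGC bound by NRF2 with small Maf proteins. These letters, searched on both strands in the same windows, occurred in 4071 of 32851 promoters (12.4%). Of the 8 members with a promoter entry, which had 11 promoters in all, only Sod1 had them. In Sod1 the match, on the reverse strand, ended 47 bases before the start site, within chr16:90220686-90220734 as read on the plus strand.
Sod1 promoter: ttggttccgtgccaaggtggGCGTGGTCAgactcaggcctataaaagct
Here too, 1 match among 11 promoters was near the share over all promoters, and nothing is read from the count. The match does not overlap a CACGTG, which the Sod1 window lacks, and is a description only.

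Catalase was higher in every Rragc S74N/+ kidney. It measured 4545, 5016, 3902, 4837 and 4496 normalized counts in Rragc +/+ mice and 6200, 6416, 6718, 5815 and 5524 in Rragc S74N/+ mice. The lowest heterozygote (5524) exceeded the highest wild type (5016). The means of 4559 ± 425 and 6134 ± 474 (SD, n = 5 each) differed by 34.6%, and the log2 difference was 0.43 (SE 0.086, 95% interval 0.25 to 0.61). Cat passed the threshold in all 20 alternatives, with log2 differences between 0.375 and 0.473.

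The genes closest to Cat over the 10 mice were the carboxylesterases Ces1f (r = 0.953) and Ces2c (0.952), Eci3, a peroxisomal enoyl-CoA isomerase (0.945), B830017H08Rik (0.945) and Acot12, an acetyl-CoA thioesterase (0.935). Here too the genotype difference is part of the value. Ces2c lay at 2130 to 2939 normalized counts in wild types and at 3765 to 3942 in heterozygotes, without overlap. Except for B830017H08Rik, these genes passed the threshold with higher levels.

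The library numbers in the labels fell into 2 runs, an earlier one with 2 wild types and 1 heterozygote (replicates 1 and 2, and replicate 1) and a later one with 3 wild types and 4 heterozygotes. The labels do not say what the numbers stand for. Within the later run alone the log2 difference was -2.73 (SE 0.5) for Gpx6 and 0.473 (SE 0.0993) for Cat, and both passed the threshold. In that run Gpx1 differed by 0.36 (SE 0.103), Gpx3 by -0.25 (SE 0.112) and Sod1 by 0.18 (SE 0.103), none of which passed. The earlier run, with 1 heterozygote, allows no comparison of its own.

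Rragc itself averaged 285.5 ± 42.3 normalized counts in Rragc +/+ and 215.9 ± 23.6 in Rragc S74N/+ mice (SD, n = 5 each), a log2 difference of -0.40 (SE 0.115) that did not pass the threshold. The knock-in is a substitution, so the level of this transcript does not check the labels. Recovered reads numbered 6501552 to 7856363 per wild-type and 6872310 to 7996087 per heterozygous library, and an exact permutation test, two-sided, gave p = 0.595. All 10 mice had reads of the 4 Y-linked genes listed. Of the other cell types checked, markers of the adrenal gland were not among the genes of the table.

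The enzymes and cofactors that work with these genes were described through 10 lists, which held 131 tested genes. Of these, 17 passed the threshold, 14 with higher and 3 with lower levels in Rragc S74N/+ kidneys. Among all genes tested, 3.69% passed. The lists were written with earlier results of these data known, so the counts describe them and are no independent evidence of direction.

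**Figure D4:**
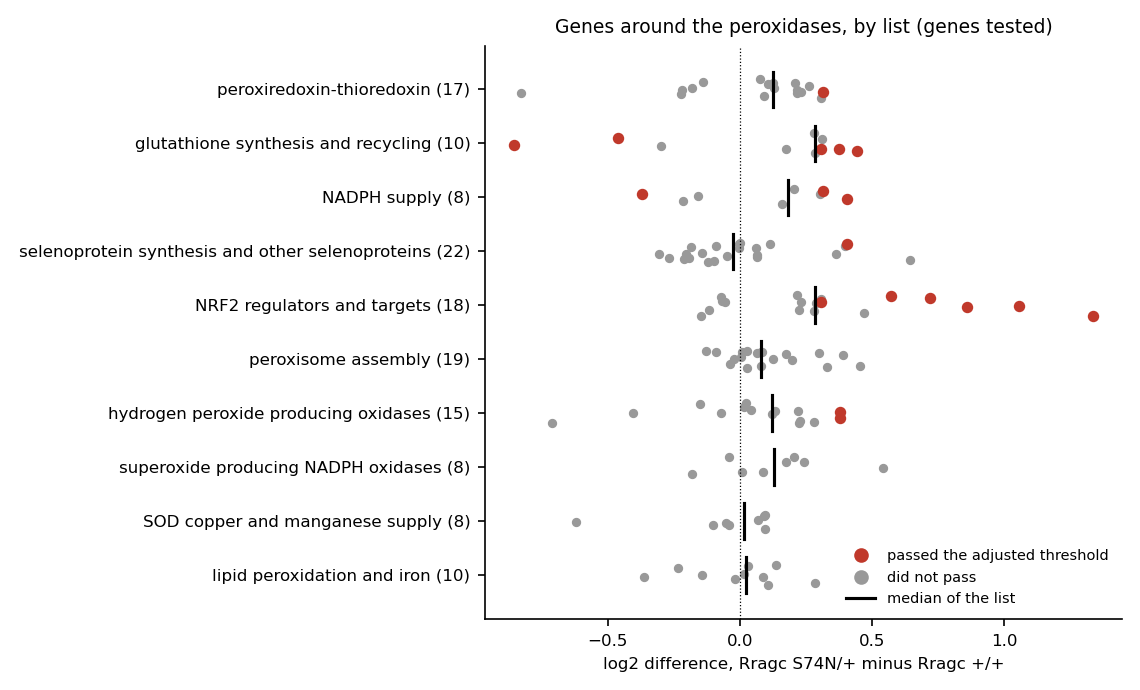
Log2 difference between Rragc S74N/+ and Rragc +/+ kidneys (x axis) of every tested gene of the 10 lists (rows, number of genes in brackets). Red points passed the adjusted threshold, grey points did not, and the black bar is the median of the list, highest for NRF2 regulators and targets (0.284) and for glutathione synthesis and recycling (0.283).

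NRF2 is the transcription factor that switches on many antioxidant and conjugation genes. Of 18 tested NRF2 regulators and targets, 6 rose, 0 fell and 12 did not pass the threshold, with a median log2 difference of 0.284. The difference was above 0 for 13 and below 0 for 5. Those below 0 were Gsta4 (-0.07) and the regulators Nfe2l2, which encodes NRF2 (-0.15), Nfe2l1 (-0.12), Bach1 (-0.07) and Keap1 (-0.06). Of the 6 that rose, the 4 with the largest differences were Abcc4, an efflux transporter, Gsta2 and Gstm1, glutathione S-transferases, and Nqo1, a quinone reductase. Abcc4 rose from 223.4 ± 29.2 to 612.8 ± 278 normalized counts (SD, n = 5 each), with a log2 difference of 1.33 (SE 0.229, limma adjusted p = 0.00177). Gsta2 rose by 1.06 (SE 0.237, limma adjusted p = 0.0157), with overlapping groups of 361.7 to 530.4 and 441.4 to 1583. Gstm1 rose from 3009 ± 83.7 to 5466 ± 302 (SD, n = 5 each; log2 difference 0.86, SE 0.071, limma adjusted p = 5.41e-07), and no heterozygote was below 5193. Nqo1 rose by 0.72 (SE 0.135, limma adjusted p = 0.00381). The other two were Ugdh, which makes UDP-glucuronic acid and rose by 0.57 (limma adjusted p = 0.0177), and Gclm, the modifier subunit of the first enzyme of glutathione synthesis.

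Glutathione, the electron donor of the peroxidases, is made in a pair of steps and can be broken down outside the cell. Of 10 tested genes of its synthesis and recycling, 3 rose and 2 fell, with a median of 0.283. Gss, the enzyme of the second step, rose from 1170 ± 99 to 1519 ± 135 (SD, n = 5 each; log2 difference 0.38, limma adjusted p = 0.0173), and Gclm rose by 0.31 (limma adjusted p = 0.0398). Oplah, which opens the ring of oxoproline, rose by 0.44 (limma adjusted p = 0.0498). The genes that fell act in transport and breakdown. Slc3a2, the heavy chain of several amino acid exchangers, went from 810.2 ± 104 to 446.6 ± 46.3 (SD, n = 5 each; log2 difference -0.85, SE 0.102, limma adjusted p = 4.72e-05), and Dpep1, a brush-border dipeptidase, from 973.1 ± 69.9 to 709.7 ± 87.1 (log2 difference -0.46, limma adjusted p = 0.00677).

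Of 8 genes that supply NADPH, with which oxidized glutathione is reduced, 2 rose and 1 fell. Pgd, of the pentose phosphate pathway, rose by 0.41 (limma adjusted p = 0.0424) and Me1, malic enzyme, by 0.31 (limma adjusted p = 0.0346). Idh2, the mitochondrial isocitrate dehydrogenase, fell by 0.37 on the log2 scale (limma adjusted p = 0.0301). The median of the list was 0.18. Among 17 peroxiredoxins, thioredoxins and their partners, 1 rose, Prdx6, a peroxidase that also acts on phospholipids (1819 ± 75 to 2263 ± 140, SD, n = 5 each; log2 difference 0.31, limma adjusted p = 0.0203), and the median was 0.123.

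Among 15 oxidases that release hydrogen peroxide, 2 rose and 0 fell, and the median was 0.122. Acox2, an oxidase of branched-chain acyl-CoA, rose by 0.38 (limma adjusted p = 0.0424), with overlapping groups of 649.6 to 849.3 and 738.5 to 1016 normalized counts. None of 19 peroxisome assembly genes passed the threshold, and their median was 0.079.

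Of 22 genes for selenoproteins and their synthesis, 1 passed the threshold, with a median of -0.026. That gene was Selenbp1 (2549 ± 378 to 3356 ± 244, SD, n = 5 each; log2 difference 0.41, limma adjusted p = 0.0215), which binds selenium but has no selenocysteine. No gene passed among 8 of the superoxide-producing NADPH oxidases (median 0.13), 8 of copper and manganese supply to superoxide dismutases (0.013) and 10 of lipid peroxidation and iron (0.022).

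The number of called list genes changed when mice were left out. It was 9 without Rragc S74N/+ replicate 1, 11 without Rragc +/+ replicate 3, 7 without Rragc +/+ replicate 4 and 8 without Rragc +/+ replicate 5, and it was 11 when both libraries with raised adipocyte markers were left out. Calls over all genes also fell in these fits, from 487 to 358, 375, 310, 295 and 369, in the same order. Of the 17 list genes called, 3 (Slc3a2, Dpep1 and Gstm1) passed in the main analysis and in all 20 alternatives, and 14 missed the threshold in at least 1. Among these 14, Oplah passed in 8 of 20 alternatives, Gclm and Pgd in 10, Acox2 in 11 and Me1 in 12. Abcc4, Nqo1 and Gss passed in 19. Other alternatives called more list genes, namely 24 with the covariate for the run of library numbers and 21 with DESeq2 on recovered reads.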

How the data were processed

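Kidney RNA of 5 Rragc +/+ and 5 Rragc S74N/+ mice was analysed, 1 library per mouse, with genotypes from the sample labels and replicates numbered in accession order. Per the submitters' processing notes, reads were checked with FastQC 0.11.7, aligned with TopHat2 2.0.10 (Bowtie 1.0.0, SAMtools 0.1.19) to GRCm39 and counted with HTSeq 0.6.1, which the study ran with strand. The deposited values are a signal for each gene in each library, namely reads scaled by the authors with 1 size factor per library. Genes that share reads with a near-identical copy are uncertain. All values of every library were whole reads (100%, tolerance 0.01 reads) once multiplied by the size factor. The lowest mean of a gene in the table was 5.64, and genes below it were not used here.

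Genes that reached 10 normalized counts in 5 or more mice were tested as log2(normalized count + 1) by limma 3.58.1 (R 4.3.3; lmFit, then eBayes with a trend), two-sided, with Benjamini-Hochberg adjustment over 13197 genes and a threshold of 0.05. The added 1 makes fold changes of low genes too small. Intervals are 95% and unadjusted. Since the deposited values are not raw counts, the count models edgeR 4.0.16 and DESeq2 1.42.0 served as alternatives, on recovered reads. They called 480 and 648 genes, against 487 by limma. Other alternatives were pseudocounts of 0.5 and 5, no filter, a mean of at least 50, TMM rescaling, a covariate for the run of library numbers, the later run alone, and each mouse left out in turn. Leaving out the 2 libraries with raised adipocyte markers was added after seeing the data. The fits were tested on simulated data.

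The members, lists and markers were chosen with earlier results of these data known. Named were all members, Rragc, the called genes of each list (at most 4 by size of difference, and Ugdh and Gclm in addition, named after their values were seen), and the genes with the highest Pearson r to each called member. The genes of the NRF2 list with a log2 difference below 0 were also named after their values were seen. A further gene covered by this rule is not reported here. Coding sequences came from GENCODE vM21 (GRCm38) and promoters from RefSeq (GRCm38.p6); residues were aligned with biopython 1.88. No coordinates were converted between builds.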

Additional observations from a re-analysis of the deposited data

Results flagged for a closer look

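In each genotype, the highest and lowest mouse of the 9 genes and of the 17 called list genes was checked for a gap to the next mouse that was large relative to the whole range (Dixon's test at the 95% level). Of 52 groups, 6 were picked out, and chance picks out about 1 in 20. Gpx3 in Rragc S74N/+ replicate 1 was at 152850 normalized counts, the other heterozygotes at 90871 to 102950. Gpx8 in Rragc +/+ replicate 1 was at 128, the other wild types at 94.3 to 103.2. Acox2 in Rragc +/+ replicate 2 was at 849, against 649.6 to 675.9, and Me1 in the same mouse at 1842, against 1515 to 1574. Prdx6 in Rragc +/+ replicate 1 was at 1949, against 1758 to 1807. Selenbp1 in Rragc S74N/+ replicate 1 was at 3784, against 3199 to 3304.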

How the results depend on the processing

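Gpx6 and Cat kept their direction and their call in all 20 alternatives (log2 differences of -2.81 to -2.01 and 0.375 to 0.473). The number of called members was 2 or 3 throughout, the third being Gpx1. Gpx1 passed with edgeR (0.335), DESeq2 (0.34), a mean of at least 50 (0.335), the covariate for library numbers (0.361) and without Rragc +/+ replicate 1 (0.368) or Rragc S74N/+ replicate 2 (0.368) or 4 (0.388). For Gpx3, Gpx4, Gpx8, Sod1 and Sod3 neither the call nor the direction changed, whereas Sod2 ranged from -0.0186 (without Rragc +/+ replicate 3) to 0.0629 (without Rragc +/+ replicate 2) when single mice were left out. Of 131 list genes, 17 were called in the main analysis, 9 in the later run of library numbers alone, 11 without the 2 libraries with raised adipocyte markers, and 7 to 17 when single mice were left out. The count was 24 with the covariate for library numbers, 21 with DESeq2 and 15 to 17 in the other alternatives. Fewer mice entered the fits of the later run and those with mice left out, and the cause of the differences was not tested. Over all genes, the covariate for library numbers raised the count of calls from 487 to 832. The difference in recovered reads stayed within the spread between mice in every alternative. No paired analysis was possible because the replicate numbers only name the mice. Gpx6 in Rragc S74N/+ replicate 5 rested on 10 reads, where counting error is large.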

Other observations

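When the genotype means were removed from the log2 values, the genes that followed Gpx6 most closely over the 10 mice were Col19a1 (Pearson r = 0.975), Kcnk1 (0.97), Wfdc15b (0.969), 2510046G10Rik (0.961) and Angpt2 (0.96). Except for Kcnk1, these values rested largely on Rragc S74N/+ replicate 5. Without it r was 0.592, 0.89, 0.527, -0.0632 and 0.621, in the same order. Those closest to Cat were Pigk (0.929), 2810030D12Rik (0.928), Plekhg1 (0.919), Nsdhl (0.915) and Zfp105 (0.912), and without that mouse they were at 0.891 to 0.909. None of these genes but Wfdc15b passed the threshold between genotypes. The values describe 10 libraries, were picked as the highest of 13197 genes and carry no test.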
